A study of Mus musculus with 6 samples.

Results

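The genes described here build and maintain the mitochondrial protein import routes and the inner membrane folds called cristae. Members were chosen by gene symbol alone: the translocase genes of the outer (Tomm) and inner (Timm) membranes with a numbered name, the numbered Chchd, Mtx and Grpel genes, and Samm50, Immt, Apoo, Apool, Pmpca, Pmpcb, Oxa1l, Gfer, Phb and Phb2. This gave 47 of the 23420 gene rows in the count table, and all 47 passed the filter on low counts that left 14340 genes for testing. Nearly all mitochondrial proteins are encoded in the nucleus, made in the cytosol and threaded through the translocase of the outer membrane (TOM). Proteins with a cleavable presequence then pass the TIM23 complex, carrier proteins of the inner membrane are led by small TIM chaperones to the TIM22 complex, barrel-shaped outer membrane proteins are inserted by the sorting and assembly machinery (SAM), and cysteine-rich proteins of the intermembrane space are trapped there by a disulfide relay. Cristae junctions are held by the mitochondrial contact site and cristae organizing system (MICOS), and prohibitins form ring scaffolds in the inner membrane.

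RNA was sequenced from mouse embryonic stem (ES) cells, kept self-renewing, that carried a stably integrated lentivirus for KBP(KK/RR) (replicates 4, 5 and 6) or for wild-type KBP (replicates 1, 2 and 3). KBP, the Kif1-binding protein, is a partner of kinesin motors, and the labels describe KBP(KK/RR) as a stable mutant of it. Cells of both groups therefore carry an added KBP virus, and the labels give neither the strain nor whether a line is 1 clone or whether replicates are separate cultures, so p-values measure the spread between these libraries, which may be technical. The comparison asks how transcript levels differ when the mutant stands in place of the wild-type protein. In bulk libraries, fewer cells of a type and less RNA per cell cannot be told apart.

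The libraries held 24300832 to 29863560 counts in KBP(KK/RR) cells and 24131743 to 32160411 counts in wild-type KBP cells. The KBP gene itself (2510003E04Rik) measured 56.6 ± 2.88 CPM in KBP(KK/RR) cells and 48.3 ± 1.30 CPM in wild-type KBP cells (SD, n = 3 each). This row itself rose in KBP(KK/RR) cells, with no overlap between the groups (log2 fold change 0.23, SE 0.05, edgeR adjusted p = 0.0133). Here CPM is a gene's count scaled to the TMM-adjusted library total. Whether counts of that row include RNA from the virus is not given in the labels. The first principal component of all tested genes (31.1% of the variance) parted the groups, and the second (20.8%) set wild-type KBP replicate 3 apart. The 10 ES cell markers summed to 6560 to 6840 CPM in KBP(KK/RR) cells and 6650 to 6750 CPM in wild-type KBP cells. For other cell types, 8 fibroblast or feeder markers summed to 24.1 to 24.7 CPM in KBP(KK/RR) and 23.0 to 25.9 CPM in wild-type KBP cells, and 7 primitive endoderm markers to 15.9 to 18.8 CPM in KBP(KK/RR) and 18.3 to 21.7 CPM in wild-type KBP cells. The 6 neural markers summed to 181 to 190.0 CPM in KBP(KK/RR) and 178 to 183 CPM in wild-type KBP cells, and the 5 mesendoderm markers to 9.96 to 12.6 CPM in KBP(KK/RR) and 8.77 to 9.41 CPM in wild-type KBP cells. edgeR called 1 ES cell and 1 mesendoderm marker higher and 1 primitive endoderm marker lower. None of these markers was at 0 in all 6 libraries, and their part in the results was not tested.

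Levels between genes are compared here as CPM per kilobase of transcript, using the principal coding transcript of each gene in GENCODE. On that scale the prohibitin genes led. Phb2 measured 369 ± 15.5 CPM per kilobase in KBP(KK/RR) cells and 369 ± 13.3 in wild-type KBP cells, and Phb measured 236 ± 6.25 in KBP(KK/RR) cells and 228 ± 9.42 in wild-type KBP cells. The next in order, averaged over all 6 libraries, were Chchd10 (203), Chchd2 (201) and the channel gene Timm23 (197 CPM per kilobase). Levels of Chchd10 and Timm23 did not differ beyond the spread between libraries. Chchd2 had an unadjusted p of 0.0371 and an adjusted p of 0.235 in edgeR. Tomm40, the pore of the outer membrane, averaged 154 CPM per kilobase, and the MICOS core gene Immt averaged 146. The lowest were Tomm20l (1.07 ± 0.263 in KBP(KK/RR) and 1.04 ± 0.252 CPM per kilobase in wild-type KBP cells) and Timm8a2 (0.768 ± 0.299 in KBP(KK/RR) and 0.571 ± 0.110 in wild-type KBP cells), which are close relatives of Tomm20 and Timm8a1. Their parent-like genes stood far above them, with Tomm20 at 66.6 and Timm8a1 at 71.0 CPM per kilobase. Subunits that work together were not at equal transcript levels: within TOM, Tomm40 was highest and the receptor gene Tomm70a averaged 57.7 CPM per kilobase, whereas the subunits of the matrix processing peptidase were close, Pmpca at 46.2 and Pmpcb at 45.8. For 4 genes (Apoo, Chchd7, Timm9 and Tomm5) a longer coding transcript exists, and with it Timm9 stands at 8.03 in place of 20.8 CPM per kilobase.

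**Figure D1:**
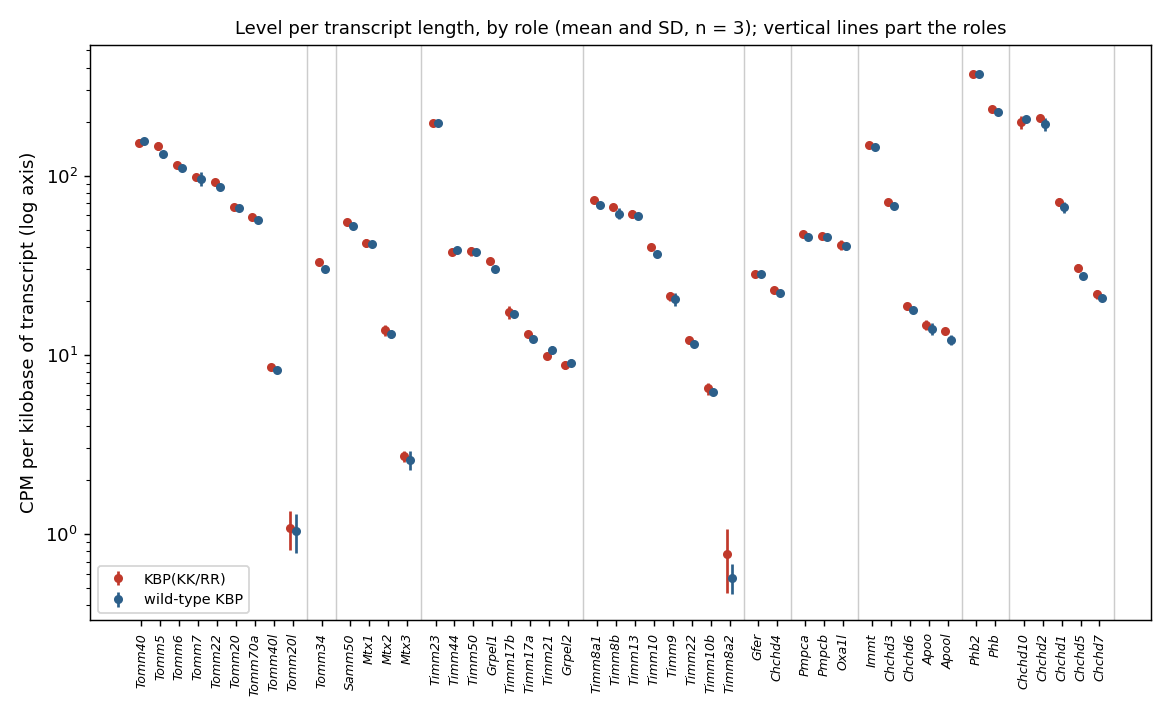
Level of each of the 47 genes in CPM per kilobase of transcript (log axis), grouped by role, with KBP(KK/RR) in red and wild-type KBP in blue; points are means and bars SD over 3 libraries. Phb2 is highest at 369 in both groups, Timm8a2 and Tomm20l are lowest, and the points of the 2 groups lie close together except for Timm8a2 (0.768 in KBP(KK/RR) and 0.571 in wild-type KBP cells).

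The genes lie on 19 chromosomes, 4 of them on X (Apoo, Apool, Timm17b and Timm8a1), and Timm9 and Tomm20l lie on opposite strands of chromosome 12 with 49 bases of exon in common. Promoter windows (250 bases before to 50 after a RefSeq start, GRCm38.p6) were matched for 40 of the 47 genes, and Chchd2, Chchd7, Grpel1, Grpel2, Timm21, Tomm40l and Tomm7 were not matched. The letters CCGGAAGT are a core bound by ETS factors such as GABPA, an activator of nuclear genes for mitochondrial proteins. They were found on either strand in windows of 10 of the 40 genes (25%). The share was 5.7% over all 17491 protein-coding genes with a RefSeq promoter window, which were not limited to genes measured here. The YY1 letters AAGATGGCG were found in 4 (10% against 2.1%), the palindromic NRF1 motif in 0 (against 1.5%), the TATA letters TATAAA in 4 (10% against 14.8%) and the GC box letters GGGGCGGGG in 6 (15% against 17.3%). Each motif was searched on both strands and counted by itself, whether or not another overlapped it. A match describes the letters and not a bound site. The following stretches cover the 100 bases before the start on the gene's own strand, with the ETS letters in capitals; 6 of the 10 genes are shown, Chchd5 because it was among the 3 genes with the smallest p, Timm8a2 because its log2 fold change was the highest of the 47 (though from few counts), and the other 4 because they carry the same letters with smaller differences between the groups. The 4 not shown are Mtx3, Phb2, Timm10 and Timm10b. In Timm23 and Timm8a2 the letters lie on the opposite strand.
Chchd5 (chr2:129129600-129129699, plus strand): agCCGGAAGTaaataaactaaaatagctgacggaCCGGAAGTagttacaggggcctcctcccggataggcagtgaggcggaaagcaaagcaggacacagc
Mtx2 (chr2:74825712-74825811, plus strand): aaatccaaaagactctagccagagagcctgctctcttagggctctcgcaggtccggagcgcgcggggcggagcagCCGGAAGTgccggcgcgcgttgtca
Pmpcb (chr5:21737060-21737159, plus strand): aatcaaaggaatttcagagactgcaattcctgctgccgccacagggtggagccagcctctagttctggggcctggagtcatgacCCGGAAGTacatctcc
Timm23 (chr14:32201892-32201991, minus strand): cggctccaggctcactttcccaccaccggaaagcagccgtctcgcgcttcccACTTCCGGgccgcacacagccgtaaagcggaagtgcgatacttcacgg
Timm8a2 (chr14:122034574-122034673, plus strand): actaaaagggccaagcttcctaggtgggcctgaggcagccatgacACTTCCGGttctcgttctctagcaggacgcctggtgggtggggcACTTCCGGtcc
Tomm70a (chr16:57121614-57121713, plus strand): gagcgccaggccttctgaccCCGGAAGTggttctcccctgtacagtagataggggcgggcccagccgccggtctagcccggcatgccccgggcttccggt

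In Mtx1, Oxa1l and Timm50 the YY1 letters, in capitals below, began 11 bases after the start, and in the other gene with them, Mtx3, 16 bases after it. The 30 bases shown run from -9 to 20 around the start in Mtx1, Oxa1l and Timm50, and from -4 to 25 in Mtx3. The stretches are thus lined up on the YY1 letters and not on the start.
Mtx1 (chr3:89213887-89213916, minus strand): ttccgggtcagagagcgtacAAGATGGCGg
Oxa1l (chr14:54360832-54360861, plus strand): gtaagttccctcttcccggcAAGATGGCGa
Timm50 (chr7:28312026-28312055, minus strand): gggccgcgtggcgtcagcgcAAGATGGCGg
Mtx3 (chr13:92844764-92844793, plus strand): tgacagaggtcagccccggcAAGATGGCGg

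The 10 genes with the ETS letters had a median log2 fold change of 0.06 (0.00 to 0.48), and the 30 matched genes without them had a median of 0.07 (-0.07 to 0.18), and the ranges overlapped.

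Differences between KBP(KK/RR) and wild-type KBP cells were mostly small, and 1 gene passed the test. Grpel1 rose, and 0 genes fell, out of 47 (edgeR, adjusted p under 0.05 over all genes tested), against a background of 3.12% of all tested genes called, 1.05% higher and 2.07% lower. Over all genes the balance of calls depended on the scaling, with 151 higher and 297 lower in the main setting and 235 higher and 205 lower with upper-quartile scaling. At an unadjusted p under 0.05, 10 genes stood higher and 1 gene lower, against 8.32% and 10.3% of all tested genes. DESeq2 gave an adjusted p to 45 of the 47 genes, not to Timm8a2 and Tomm20l, and called 1 higher and 0 lower, against 70 higher and 237 lower of the 8838 genes with one. The log2 fold change was above 0 in 42 of the 47 genes, as it was in 49.2% of all tested genes, and the median was 0.06, against -0.00 over all tested genes. In 18 genes every KBP(KK/RR) library lay above every wild-type KBP library and in 2 every one lay below (background 11.8% and 10.5%). The 47 genes had a median log2 CPM of 6.18 against 4.47 over all tested genes, and a median SE of 0.0489 against 0.0673. The 95% interval of the fold change lay within 1.2-fold either way in 43 of the 47 genes (56% of all tested genes). Within 1.1-fold it lay in 14, and for that bound no share over all tested genes was taken. The part of expression level in the width of the intervals was not tested. These intervals reflect the spread between these libraries, which may be technical, and may be too narrow for separate cultures or lines.

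**Figure D2:**
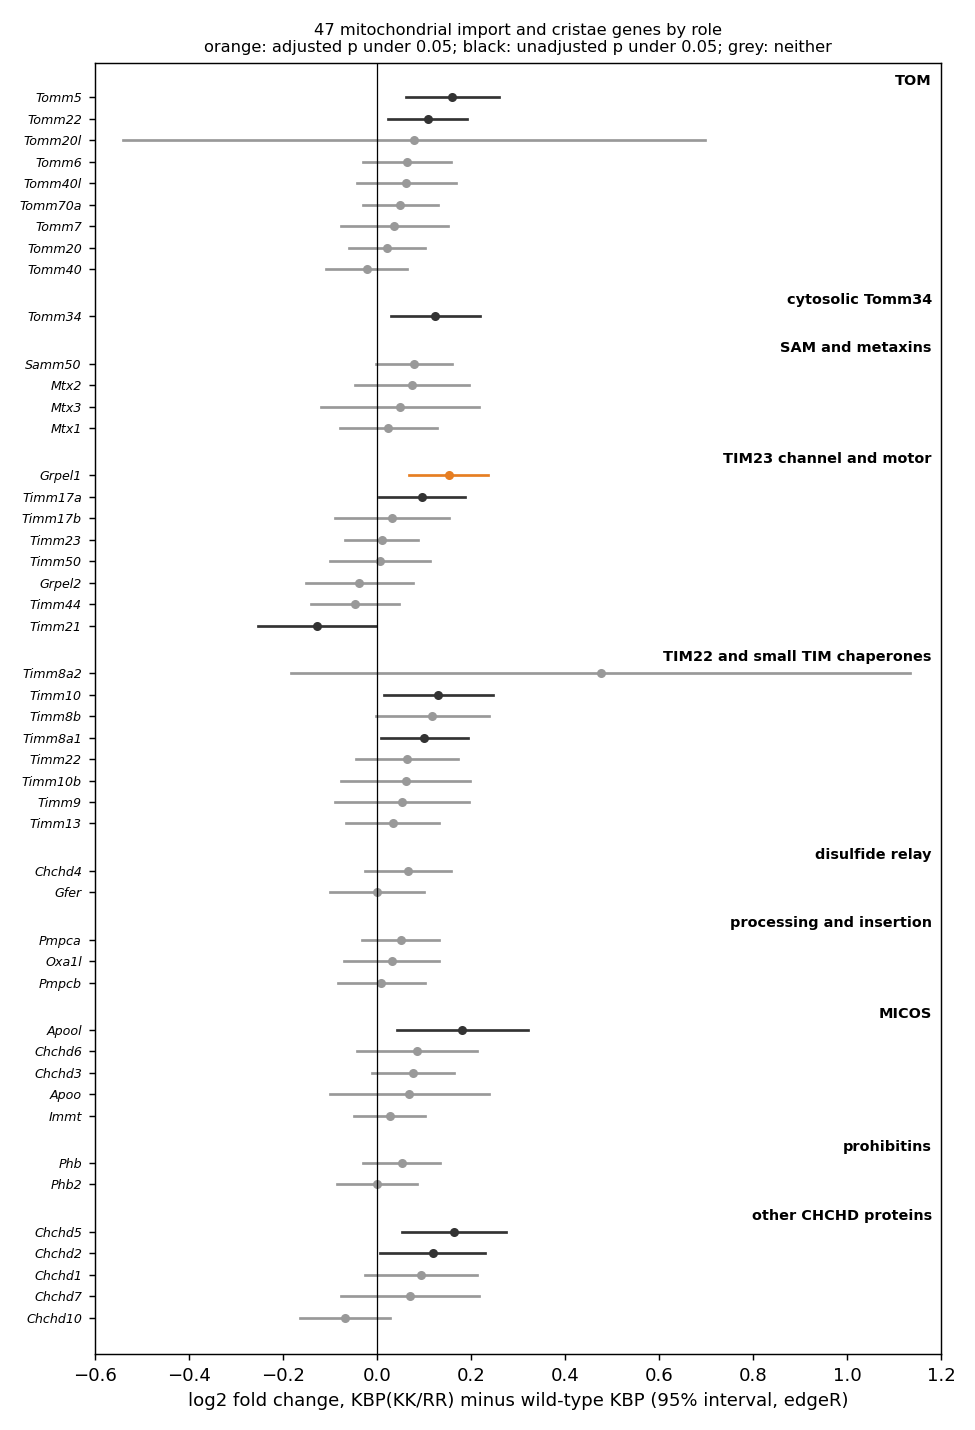
Log2 fold change, KBP(KK/RR) minus wild-type KBP, of each gene with its 95% interval from edgeR (3 libraries per group), grouped by role. Grpel1, in orange, is the gene with an adjusted p under 0.05; most points lie between 0 and 0.2, and only the 2 rarely read genes Timm8a2 and Tomm20l have wide intervals.

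The matrix import motor held the gene that rose. Grpel1 (chromosome 5, 36464998 to 36474080 on GRCm38, plus strand), the nucleotide exchange factor that lets the mitochondrial Hsp70 motor release its substrate, measured 118, 119 and 119 CPM in KBP(KK/RR) cells, against 106, 105 and 108 CPM in wild-type KBP cells. Every KBP(KK/RR) library lay above every wild-type KBP library. The log2 difference between the groups was 0.15 (SE 0.04, edgeR adjusted p = 0.0404), a fold of 1.11 with a 95% interval of 1.05 to 1.178. Its relative Grpel2 measured 37.7, 34.7 and 34.5 CPM in KBP(KK/RR) cells, against 38.0, 36.6 and 35.0 CPM in wild-type KBP cells, a log2 fold change of -0.04 (SE 0.06, edgeR adjusted p = 0.769). The 2 groups overlapped for Grpel2. The call for Grpel1 is marginal: it was lost in limma-voom (adjusted p = 0.0533) and in limma on the normalized signal (0.0594), and in every omission of 1 library except KBP(KK/RR) replicate 4, at adjusted p of 0.0947 and 0.164 when KBP(KK/RR) replicate 5 or 6 was dropped and of 0.1, 0.198 and 0.0629 when wild-type KBP replicate 1, 2 or 3 was dropped. The exons of Grpel1 share 411 bases with Tada2b on the opposite strand, and Tada2b measured 20.1 ± 0.561 CPM in KBP(KK/RR) cells and 19.6 ± 1.44 CPM in wild-type KBP cells.

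The other 7 genes of the TIM23 route had small log2 fold changes on both sides of 0. Of these 7, 0 passed the threshold in edgeR, where 1.05% of all tested genes were called higher and 2.07% lower. Timm17a, a core subunit beside the channel, measured 94.2, 93.1 and 98.1 CPM in KBP(KK/RR) cells, against 91.8, 86.7 and 88.7 CPM in wild-type KBP cells (log2 fold change 0.10, SE 0.04, edgeR adjusted p = 0.244), with no overlap between the groups. Timm21, which links TIM23 to the outer membrane translocase, measured 24.2, 24.1 and 22.8 CPM in KBP(KK/RR) cells, against 26.8, 26.4 and 24.4 CPM in wild-type KBP cells. All 3 KBP(KK/RR) values were below the wild-type KBP values, with a narrow gap between the nearest libraries. Timm21 had a log2 fold change of -0.13 (SE 0.06, edgeR adjusted p = 0.262), and when each library was corrected for transcript length and GC content it stood at -0.18 and passed the threshold (adjusted p = 0.0399). Timm44, which tethers the motor to the channel, was the other gene with KBP(KK/RR) below wild-type KBP in every library (66.8 ± 1.41 in KBP(KK/RR) and 69.0 ± 0.742 CPM in wild-type KBP cells), with a log2 fold change of -0.05. The channel gene Timm23 itself measured 231 ± 1.79 CPM in KBP(KK/RR) cells and 229.7 ± 2.28 CPM in wild-type KBP cells (fold 1.01, 95% interval 0.955 to 1.06). Timm23 is almost identical to a gene on chromosome 10, Gm10273, which matches 95.6% of its transcript, so its reads may be divided between them. Timm17b and the receptor gene Timm50 had log2 fold changes of 0.03 and 0.01.

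Of 9 genes for TOM, 0 passed the threshold in edgeR, with 2 higher and 0 lower at an unadjusted p under 0.05, and 0 of the 8 with a DESeq2 adjusted p (all but Tomm20l) were called by it. The 2 were subunits of the core. Tomm5, a small subunit of the pore complex, measured 91.4, 99.3 and 91.3 CPM in KBP(KK/RR) cells, against 81.8, 88.0 and 82.2 CPM in wild-type KBP cells. Its groups did not overlap, the lowest KBP(KK/RR) library being 91.3 CPM and the highest wild-type KBP library 88.0 CPM. The log2 difference between the groups was 0.16 (SE 0.05, edgeR adjusted p = 0.0653), and Tomm5 passed with upper-quartile scaling (0.0421), with no filter on low counts (0.0215) and without KBP(KK/RR) replicate 4 (0.0316), whereas the log2 fold change was 0.10 with the length and GC trend removed. Tomm22, the central receptor that organizes the complex, measured 142, 146 and 148 CPM in KBP(KK/RR) cells, against 136, 137 and 132 CPM in wild-type KBP cells (log2 fold change 0.11, SE 0.04, edgeR adjusted p = 0.150). The groups again did not overlap for Tomm22. The presequence receptor Tomm20 (329 ± 8.97 CPM in KBP(KK/RR) and 324 ± 8.18 CPM in wild-type KBP cells), the pore Tomm40 (252 ± 11.2 in KBP(KK/RR) and 256 ± 7.79 CPM in wild-type KBP cells) and the small subunits Tomm6 (85.9 ± 3.36 in KBP(KK/RR) and 82.2 ± 1.38 CPM in wild-type KBP cells) and Tomm7 (111 ± 3.16 in KBP(KK/RR) and 108 ± 9.95 CPM in wild-type KBP cells) had log2 fold changes of 0.02, -0.02, 0.06 and 0.04. The groups did not overlap for Tomm6. Tomm70a, the receptor for carrier precursors, measured 350.4 ± 11.5 CPM in KBP(KK/RR) and 338 ± 2.19 CPM in wild-type KBP cells, with no overlap (log2 fold change 0.05); its exons share 41 bases with Nit2 on the opposite strand, which rose (79.8 ± 1.27 in KBP(KK/RR) and 70.4 ± 0.527 CPM in wild-type KBP cells, log2 fold change 0.18, edgeR adjusted p = 0.0274). The sign for Tomm40 turned positive without KBP(KK/RR) replicate 4, without wild-type KBP replicate 3 and with the length and GC trend removed. The counts of Tomm40l (log2 fold change 0.06) and Tomm6 are uncertain, since 64.3% of the exon bases of Tomm40l overlap Nr1i3 on the opposite strand and 76.0% of those of Tomm6 overlap Gm21981 on the same strand, and the strand setting of the counting is not given in the sources used here. Tomm20l, with 22, 11 and 20 counts in KBP(KK/RR) libraries and 20, 17 and 12 counts in wild-type KBP libraries, is rarely read, and the 95% interval of its fold ran from 0.688 to 1.62.

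Tomm34 is a cytosolic co-chaperone that binds Hsp70 and Hsp90 while they carry precursors to the organelle. It measured 74.8, 74.2 and 77.2 CPM in KBP(KK/RR) cells, against 71.2, 67.4 and 69.0 CPM in wild-type KBP cells, and the groups did not overlap. The log2 difference between the groups was 0.12 (SE 0.05, edgeR adjusted p = 0.138), and Tomm34 passed with the length and GC trend removed (0.14, adjusted p = 0.0323).

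For the outer membrane insertion machinery, Samm50, the barrel-shaped insertase of SAM, measured 248.7, 257 and 262 CPM in KBP(KK/RR) cells, against 246, 239 and 242 CPM in wild-type KBP cells, without overlap (log2 fold change 0.08, SE 0.04, edgeR adjusted p = 0.276). The metaxins, partners of Samm50 on the cytosolic side, overlapped between the groups: Mtx1 had a log2 fold change of 0.03, Mtx2, whose promoter stretch is printed above, of 0.08 and Mtx3 of 0.05. Mtx1 turned negative without KBP(KK/RR) replicate 5 and without wild-type KBP replicate 1, and Mtx3 without wild-type KBP replicate 3.

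All 8 genes for the TIM22 complex and the small TIM chaperones had a log2 fold change above 0 in the main setting (Timm9 and Timm13 turned in others), against 49.2% of all tested genes. Of the 8, 0 passed the threshold in edgeR, where 1.05% of all tested genes were called higher and 2.07% lower. At an unadjusted p under 0.05, 2 were higher and 0 lower, against 8.32% and 10.3% of all tested genes. DESeq2 gave no adjusted p to Timm8a2 and called 0 of the other 7. Timm10, which forms the main carrier chaperone together with Timm9, measured 27.7, 27.5 and 28.0 CPM in KBP(KK/RR) cells, against 25.6, 25.6 and 24.7 CPM in wild-type KBP cells. The groups did not overlap, and the log2 difference between the groups was 0.13 (SE 0.06, edgeR adjusted p = 0.210). Its partner Timm9 measured 20.96 ± 1.29 CPM in KBP(KK/RR) and 20.2 ± 1.598 CPM in wild-type KBP cells, with overlap (log2 fold change 0.05). Timm8a1, whose human counterpart is mutated in a deafness and dystonia syndrome, measured 104, 101 and 109 CPM in KBP(KK/RR) cells, against 100.2, 98.6 and 93.4 CPM in wild-type KBP cells (log2 fold change 0.10, SE 0.04, edgeR adjusted p = 0.227). The gap for Timm8a1 was narrow, 101 against 100.2 CPM, and 43.1% of its transcript matches the pseudogene Gm9797. Timm13, which works with Timm8a1, had a log2 fold change of 0.03 with overlap, and its sign turned without KBP(KK/RR) replicate 6. Timm8b stood at 0.12, Timm22, the carrier channel, at 0.07 without overlap between the groups, and Timm10b, which docks the chaperones on the channel, at 0.06. Timm8a2 had 18, 12 and 30 counts in KBP(KK/RR) libraries and 15, 13 and 14 counts in wild-type KBP libraries, and its log2 fold change of 0.48 (SE 0.32, edgeR adjusted p = 0.444) rests on 1 library, KBP(KK/RR) replicate 6, without which it is 0.11.

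The disulfide relay, which oxidizes incoming cysteine-rich proteins, showed little difference. Chchd4, the import receptor and oxidase of the relay, measured 81.3, 79.1 and 80.2 CPM in KBP(KK/RR) cells, against 75.6, 78.1 and 76.0 CPM in wild-type KBP cells, without overlap (log2 fold change 0.07, SE 0.04, edgeR adjusted p = 0.433). Gfer, which reoxidizes Chchd4, measured 49.96 ± 1.24 CPM in KBP(KK/RR) and 49.9 ± 0.998 CPM in wild-type KBP cells, a log2 fold change of 0.00 with a 95% interval of the fold of 0.934 to 1.07. Of the Gfer transcript, 32.3% matches annotated exons of Dst. Dst measured 212 ± 65 CPM in KBP(KK/RR) and 330 ± 90.1 CPM in wild-type KBP cells (log2 fold change -0.64, edgeR adjusted p = 0.419). The effect of this match on the counts of Gfer was not tested. Among genes of presequence cleavage and inner membrane insertion, Pmpca measured 144, 148 and 149.6 CPM in KBP(KK/RR) cells, against 140.5, 142 and 144 CPM in wild-type KBP cells. The nearest libraries of the groups were close together, and Pmpca had a log2 fold change of 0.05 (SE 0.04, edgeR adjusted p = 0.520). Pmpcb and the insertase gene Oxa1l had log2 fold changes of 0.01 and 0.03, with overlap. Oxa1l ends against Slc7a7 on the opposite strand, with 232 bases in common. Slc7a7 measured 137 ± 3.61 CPM in KBP(KK/RR) and 151 ± 8.78 CPM in wild-type KBP cells (log2 fold change -0.14, edgeR adjusted p = 0.0800).

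Of the 5 MICOS genes, all had a log2 fold change above 0 and 4 had groups that did not overlap (49.2% and 11.8% of all tested genes, KBP(KK/RR) above). Both edgeR and DESeq2 called 0 of the 5 MICOS genes (in edgeR, 1.05% of all tested genes were called higher and 2.07% lower). At an unadjusted p under 0.05 in edgeR, 1 stood higher and 0 lower, against 8.32% and 10.3% of all tested genes. Apool, a cardiolipin-binding subunit, measured 18.6, 18.4 and 18.6 CPM in KBP(KK/RR) cells, against 15.5, 16.1 and 17.6 CPM in wild-type KBP cells. Its KBP(KK/RR) libraries lay close together and the wild-type KBP libraries were spread, and the log2 difference between the groups was 0.18 (SE 0.07, edgeR adjusted p = 0.143). Chchd3, which ties the complex to SAM, measured 111 ± 1.59 CPM in KBP(KK/RR) and 105 ± 3.11 CPM in wild-type KBP cells (log2 fold change 0.08), and Chchd6 had a log2 fold change of 0.09. Immt, the core subunit, measured 405, 399 and 405 CPM in KBP(KK/RR) cells, against 398, 398 and 391 CPM in wild-type KBP cells. Immt is read deeply, and the 95% interval of its fold, which reflects the spread between these libraries only, was 0.967 to 1.07. With the length and GC trend removed, Immt and Apoo (log2 fold change 0.07, groups overlapping) turned slightly negative. Of the Apoo transcript, 74.7% matches the pseudogene Apoo-ps, which had 0 counts in every library, and 45.5% of the Phb transcript matches Gm7666. The prohibitins overlapped between the groups: Phb measured 417, 419.6 and 438 CPM in KBP(KK/RR) cells, against 396, 404 and 429 CPM in wild-type KBP cells (log2 fold change 0.05, SE 0.04, edgeR adjusted p = 0.504), and Phb2 measured 464, 492 and 504 CPM in KBP(KK/RR) cells, against 482, 472 and 506 CPM in wild-type KBP cells (0.00, SE 0.04, edgeR adjusted p = 0.997).

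Of the 5 remaining CHCHD genes, 4 had a log2 fold change above 0, against 49.2% of all tested genes. Both edgeR and DESeq2 called 0 of the 5 (in edgeR, 1.05% of all tested genes were called higher and 2.07% lower). At an unadjusted p under 0.05 in edgeR, 2 stood above 0, against 8.32% of all tested genes. Chchd5, a cysteine-rich protein of the intermembrane space whose promoter stretch holds the ETS letters 2 times, measured 38.9, 40.4 and 42.6 CPM in KBP(KK/RR) cells, against 35.1, 36.5 and 37.3 CPM in wild-type KBP cells. The groups did not overlap, and the log2 difference between the groups was 0.16 (SE 0.05, edgeR adjusted p = 0.0972), which passed without KBP(KK/RR) replicate 4 (0.0388). Chchd2 measured 193, 183 and 199 CPM in KBP(KK/RR) cells, against 179, 189.8 and 161 CPM in wild-type KBP cells, with overlap (log2 fold change 0.12, SE 0.05, edgeR adjusted p = 0.235). The low wild-type KBP value of Chchd2 came from replicate 3, and 50.5% of its transcript matches pseudogenes on chromosome 4. The protein-coding gene Zbed5 on chromosome 5 matches 49.6% of the Chchd2 transcript, with a best identity of 100%. The effect of these matches on the counts was not tested. Chchd10, a relative of Chchd2, measured 271, 299 and 317 CPM in KBP(KK/RR) cells, against 312, 307 and 309.7 CPM in wild-type KBP cells. That is a log2 fold change of -0.07 (SE 0.05, edgeR adjusted p = 0.457). The 3 wild-type KBP libraries of Chchd10 stood close together, whereas KBP(KK/RR) replicate 4 was the lowest and replicate 6 the highest of all. Chchd1, a subunit of the mitochondrial ribosome, and Chchd7 had log2 fold changes of 0.09 and 0.07, both with overlap.

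**Figure D3:**
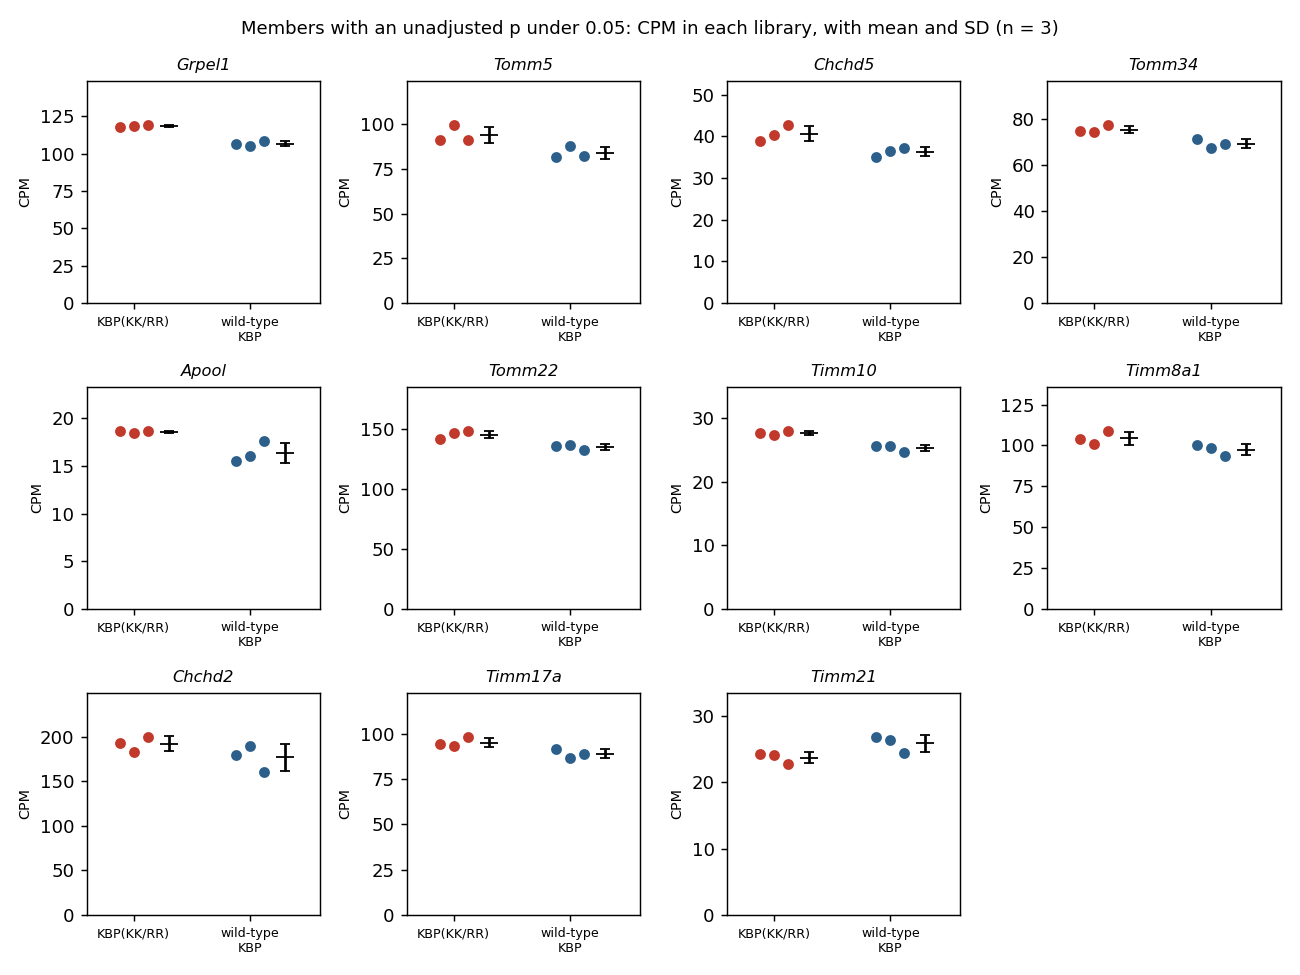
CPM in each library for the 11 genes with an unadjusted p under 0.05, each panel on its own axis from 0, with the mean and SD over 3 libraries beside the points. In 9 panels all KBP(KK/RR) points lie above the wild-type KBP points, in the Timm21 panel all lie below, and in the Chchd2 panel they overlap.

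The libraries did not contribute equally. Summed over the 47 genes, levels were 5276, 5357 and 5486 CPM in KBP(KK/RR) replicates 4, 5 and 6, against 5204, 5215 and 5244 CPM in wild-type KBP replicates 1, 2 and 3, so the sums did not overlap, with a mean of 5373 ± 106 CPM in KBP(KK/RR) and 5221 ± 20.8 CPM in wild-type KBP cells. KBP(KK/RR) replicate 6 was the highest of the 6 libraries for 27 of the 47 genes and stood above a gene's mean over all libraries for 42. KBP(KK/RR) replicate 4 was the lowest library for 11 genes and stood above the mean for 30, and replicate 5 for 32, whereas the wild-type KBP libraries did so for 12, 11 and 15. Such counts were not taken over all tested genes. The median log2 deviation from a gene's mean was 0.0143, 0.016 and 0.07 in KBP(KK/RR) replicates 4, 5 and 6. In wild-type KBP replicates 1, 2 and 3 it was -0.0201, -0.0323 and -0.023. Over all tested genes it was 0.0031, 0.0002 and 0.0019 in KBP(KK/RR) and 0.0028, 0.0009 and 0.0005 in wild-type KBP libraries. The spread within a group was small, with a median coefficient of variation over the genes of 3.34% in KBP(KK/RR) and 2.73% in wild-type KBP cells.

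**Figure D4:**
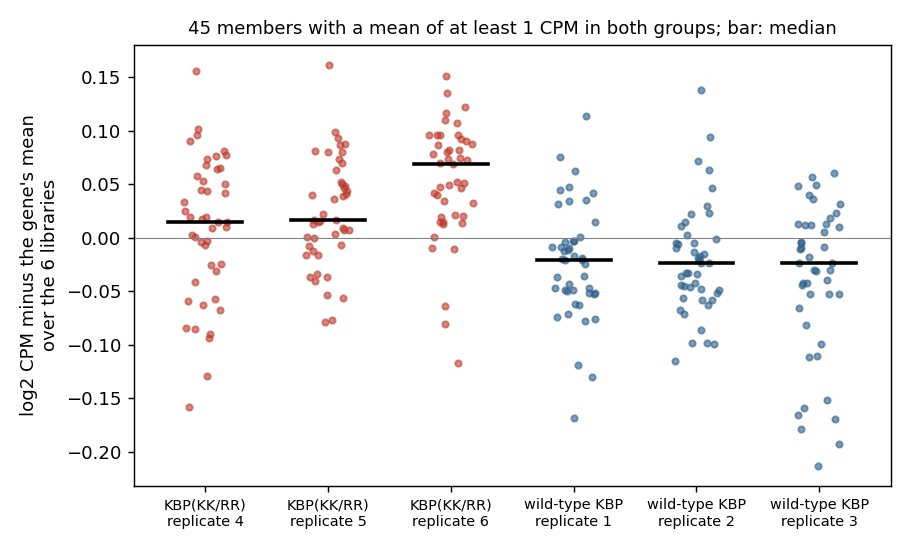
Log2 CPM minus the gene's mean over the 6 libraries for the 45 genes with at least 1 CPM on average in both groups, by library, with KBP(KK/RR) replicates 4 to 6 left of wild-type KBP replicates 1 to 3; each point is a gene and the bar the median. The bar of KBP(KK/RR) replicate 6 is highest, those of replicates 4 and 5 are slightly above 0, and the wild-type KBP bars are below 0.

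When KBP(KK/RR) replicate 6 was dropped, the median log2 fold change of the 47 genes was 0.04, 37 were above 0, 4 had an unadjusted p under 0.05 and a value above 0, and none was called. Across the settings run, 16 genes changed sign in at least 1: Apoo, Gfer, Immt, Mtx1, Mtx3, Oxa1l, Phb2, Pmpcb, Timm13, Timm17b, Timm23, Timm50, Timm9, Tomm20l, Tomm40 and Tomm7. The 47 genes also have short transcripts, with a median of 1615 bases against 2939 over all tested genes, and a median GC content of 49.7% against 50.7%. After a length and GC correction of each library, the median was 0.03 (against -0.01 over all genes), 35 genes were above 0, and edgeR called Grpel1 (log2 fold change 0.12, adjusted p = 0.0306) and Tomm34 higher and Timm21 lower. Among genes with an unadjusted p under 0.05 in the main setting, several log2 fold changes then shrank. These were Grpel1, Tomm5 (0.10), Chchd5 (0.13), Apool (0.10), Tomm22 (0.04), Timm10 (0.08), Timm8a1 (0.04) and Chchd2 (0.07). Those of Timm17a (0.14), Tomm34 and Timm21 moved further from 0. That correction would also take away a true difference that followed length.

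**Figure D5:**
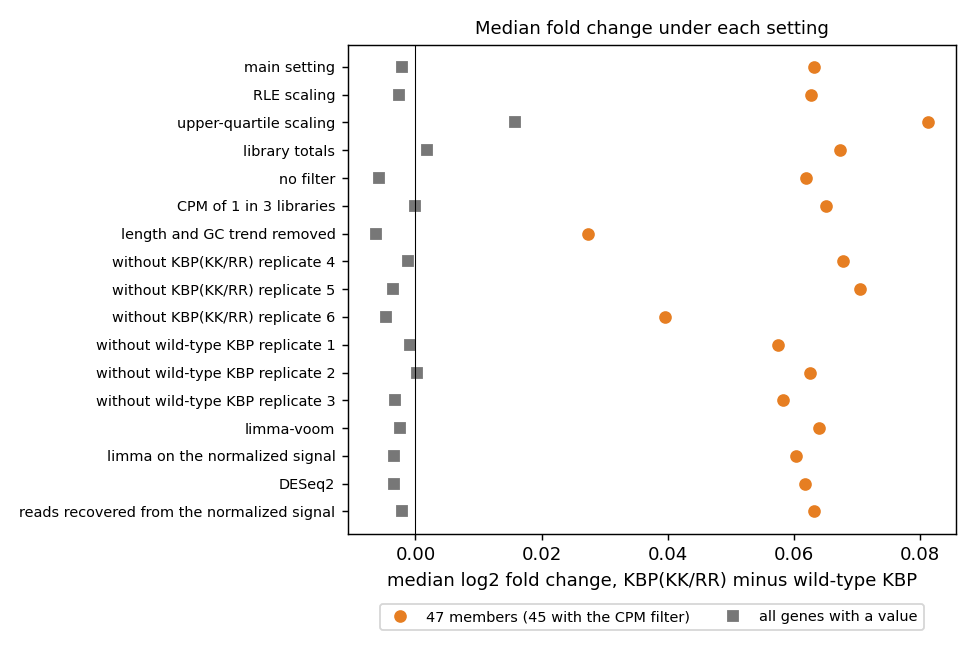
Median log2 fold change, KBP(KK/RR) minus wild-type KBP, of the 47 genes (orange; 45 with the CPM filter) and of all genes with a value (grey squares) under the main and 16 other settings. The median of the 47 genes stays above that of all genes in each setting shown, and is lowest, at 0.03 and 0.04, with the length and GC trend removed and without KBP(KK/RR) replicate 6.

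Genes of the same pathways outside the 47 were read from 6 lists of 59 genes, of which 58 were tested. In all, 1 rose and 0 fell in edgeR, against 1.05% and 2.07% of all tested genes. At an unadjusted p under 0.05, 9 of the 58 were higher and 2 lower (background 8.32% and 10.3%). DESeq2, which gave 54 of them an adjusted p, called 0. The riser was Hscb, to which DESeq2 gave no adjusted p. Hscb, a co-chaperone of iron-sulfur cluster assembly, measured 9.07, 10 and 8.68 CPM in KBP(KK/RR) cells, against 7.35, 7.35 and 7.42 CPM in wild-type KBP cells, a log2 fold change of 0.32 (SE 0.09, edgeR adjusted p = 0.0462). The groups did not overlap. The call for Hscb was lost with the length and GC trend removed (0.0819), in limma-voom (0.0697), in limma on the normalized signal (0.0603) and in every omission of 1 library except KBP(KK/RR) replicate 4 (0.0858 to 0.151). Hspa9, the Hsp70 that Grpel1 serves, measured 964 ± 24.0 CPM in KBP(KK/RR) cells and 924 ± 15.9 CPM in wild-type KBP cells (log2 fold change 0.06, edgeR adjusted p = 0.379), and the matrix folding chaperone Hspd1 had a log2 fold change of 0.09 (0.219).

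In the other lists, 0 genes were called by edgeR, against 3.12% of all tested genes. Of 13 proteases and presequence peptidases, 3 had an unadjusted p under 0.05, against 18.6% of all tested genes: Immp1l above 0, and Spg7 and Htra2 (log2 fold change -0.15) below. Spg7, a subunit of the inner membrane AAA protease, measured 77.6, 81.5 and 80.2 CPM in KBP(KK/RR) cells, against 85.8, 86.9 and 95.8 CPM in wild-type KBP cells, without overlap (log2 fold change -0.17, SE 0.05, edgeR adjusted p = 0.0621). Immp1l, an inner membrane peptidase gene, measured 19.9, 18.5 and 19.1 CPM in KBP(KK/RR) cells, against 16.1, 17.7 and 15.1 CPM in wild-type KBP cells (log2 fold change 0.23, SE 0.07, edgeR adjusted p = 0.0766). Its groups did not overlap either. Both passed with no filter on low counts (0.0158 for Spg7 and 0.0323 for Immp1l), and Spg7 also with the length and GC trend removed (0.0226). Of 8 other cristae and MICOS genes the smallest p was that of Ghitm, an inner membrane protein (211 ± 4.74 CPM in KBP(KK/RR) and 198 ± 4.52 CPM in wild-type KBP cells, log2 fold change 0.09). Of 7 outer membrane genes it was that of the channel gene Vdac3 (141 ± 2.28 in KBP(KK/RR) and 132 ± 2.67 CPM in wild-type KBP cells, 0.10). Of 12 intermembrane space genes it was that of Coa5, a cytochrome oxidase assembly factor (146 ± 3.59 in KBP(KK/RR) and 137 ± 4.22 CPM in wild-type KBP cells, 0.09). Of 9 cytosolic chaperones it was that of Dnaja1 (387 ± 10.9 in KBP(KK/RR) and 364 ± 14.2 CPM in wild-type KBP cells, 0.09). Among the intermembrane space genes, Ndufs5 had 0 counts in each library. By counting error alone, this allows up to 0.124 CPM in the shallowest library. That limit holds only if reads of Ndufs5 could be mapped and counted under this symbol, which was not tested. The median log2 fold change over the 58 genes was 0.05.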

How the data were processed

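Per the submitters' processing notes, reads were handled with bcl2fastq, TopHat, HTSeq and DESeq2 on mm10/GRCm38. Libraries were made with ScriptSeq v2 after RiboZero depletion, per the labels' protocols. For strand setting, annotation and filters: not given in the sources used here. Deposited were raw counts per gene symbol and a normalized signal; the authors' signal is a count over a library factor, as its values show (100% whole reads recovered, tolerance 0.01).

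The raw counts were tested with edgeR 4.0.16 under R 4.3.3 (filterByExpr, TMM, robust quasi-likelihood fit, group as the term), with Benjamini-Hochberg adjustment over all 14340 genes and a threshold of 0.05, which called 448 genes. Log2 fold changes run as KBP(KK/RR) over wild-type KBP. SE is the size of the log2 fold change divided by the root of the F statistic, and intervals are 95%. CPM uses TMM-scaled totals, and ± is SD over 3 libraries. Depth limits the rarely read genes most.

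The 47 members, the lists and the alternatives were chosen with earlier results of these data known. Every member is named; values in every library are given for those with an unadjusted p under 0.05, the highest levels and the smallest p per role. Length, GC content and overlaps came from GENCODE M21, with copies sought by alignment (at least 97% identity over 100 bases), and promoter windows from RefSeq. The alternatives were DESeq2 1.42.0, limma-voom and limma 3.58.1 on log2 of the signal plus 1, other scalings, filters and thresholds, a length and GC trend removed (splines with 5 degrees of freedom), each library left out, and, added after seeing the data, the test on the recovered reads. Replicates differed by more than counting noise (chi-square per degree of freedom 2.70 to 7.17). The procedure was tested on simulated counts.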

Additional observations from a re-analysis of the deposited data

How the results depend on the processing

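No paired analysis was possible because the groups share no replicate number. The median log2 fold change of the 47 genes kept its sign in every setting, from 0.03 to 0.08, and 0.04 to 0.07 with 1 library left out. Genes of the whole table called higher numbered 151 in the main test, 235 with upper-quartile scaling, 284 with no filter, 258 with the length and GC trend removed, 78 in limma-voom, 82 in limma on the signal, 70 in DESeq2, and 309 and 42 at adjusted p under 0.1 and 0.01. Those called lower numbered 297 in the main test, 205 with upper-quartile scaling, 682 with no filter, 490 with the trend removed, 192 in limma-voom, 197 in limma on the signal, 237 in DESeq2, and 514 and 88 at the other thresholds. With 1 library left out they ran from 37 to 198 higher and 85 to 569 lower. Of the 47 genes, 1 was called higher in the main test, 2 with upper-quartile scaling, 2 with no filter, 2 with the trend removed (and 1 lower), 0 in limma-voom and in limma on the signal, 3 at adjusted p under 0.1 and 0 at 0.01. With 1 library left out the number ran from 0 to 3 higher and 0 lower. The cause of these shifts was not tested.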
